A study of Homo sapiens with 18 samples.

Results

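Histone genes were followed in U2OS osteosarcoma cells that carry an empty vector, wild-type DNMT3A or mutant DNMT3A, untreated or exposed to cytarabine. The members are the protein-coding genes of the deposited count table whose symbols begin with HIST1H, HIST2H, HIST3H, HIST4H, H2AF, H3F3 or H1F. This rule gave 52 of 25296 genes. Of these, 40 are clustered genes, whose symbols begin with HIST, and 12 are variant genes. The clustered genes comprise 3 H1, 11 H2A, 12 H2B, 4 H3 and 10 H4 genes. By position, 31 belong to the HIST1 cluster on chromosome 6, 8 to HIST2 on chromosome 1 and 1 to HIST4 on chromosome 12. A further 9 genes with such symbols but another biotype were left out.

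U2OS is an established human osteosarcoma line. The 18 libraries come from 3 derived lines that all carry a vector: EV holds the empty MigR1 vector, WT overexpresses wild-type DNMT3A and MUT overexpresses mutant DNMT3A. Its mutation is given as R882C in the series text but as R882H in the sample labels, and it is called mutant here. Each line was profiled untreated, which the series text calls a vehicle control, and after exposure to 10 µM cytarabine for 24 h. Cytarabine is a nucleoside drug that stalls DNA replication. Each of the 6 groups holds 3 biological replicates. The sources used here do not give the promoter that drives DNMT3A or whether a line is 1 clone or a pool, so a difference between lines cannot be told apart from a difference between the cells each line was grown from. The p-values measure the spread between these cultures.

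Clustered histone genes are replication-dependent. Their mRNAs are made mainly in S phase, end in a conserved stem-loop bound by SLBP in place of a poly(A) tail, and are degraded quickly when DNA synthesis stops. Variant genes are transcribed throughout the cell cycle, give polyadenylated mRNAs and encode histones that replace the canonical ones at particular places or times, such as H3.3 from H3F3A and H3F3B, H2A.Z from H2AFZ and H2AFV, and macroH2A from H2AFY and H2AFY2. Several clustered genes are also known to give polyadenylated transcripts, mostly in cells that leave the cycle or differentiate.

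The stem-loop is shown for 8 clustered genes, because it marks replication-dependent histone mRNAs and was found in genes with many and with few counts. Each line gives 26 bases, 5′ to 3′ on the strand of the gene, read from the hg38 genome. Capitals mark the 16 bases of the stem-loop.
HIST1H1C: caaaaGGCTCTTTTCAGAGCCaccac
HIST1H2AC: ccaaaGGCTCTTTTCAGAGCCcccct
HIST1H2BK: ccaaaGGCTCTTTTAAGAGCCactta
HIST1H2BD: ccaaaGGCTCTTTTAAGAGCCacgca
HIST1H4H: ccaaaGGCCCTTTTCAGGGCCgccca
HIST2H2BE: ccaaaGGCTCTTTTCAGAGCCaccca
HIST1H4C: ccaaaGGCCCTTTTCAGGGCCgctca
HIST1H3B: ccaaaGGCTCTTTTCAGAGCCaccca
The first 6 genes passed the filter on low counts and the last 2 did not. The window of HIST1H1C lies at chr6:26055739-26055764 on the minus strand and that of HIST1H2BK at chr6:27146361-27146386 on the minus strand. The most frequent 16-base inverted repeat after the coding ends of the clustered genes, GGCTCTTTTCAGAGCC, was taken as the consensus. HIST1H2BK and HIST1H2BD had 1 mismatch to it and the H4 genes shown had 2.

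A match to this consensus with at most 3 mismatches lay within 150 bases after the coding end in all 18 clustered genes that passed the filter and in all 22 that did not. It was exact in 6 of the 18 and in 13 of the 22. The deposited gene models differed between these sets. The model ran more than 100 bases past the stem-loop in 14 of 18 genes that passed the filter and in 5 of 22 that did not. The median end lay 1745.5 bases past the stem-loop in the first set and at -7.0 bases, before its end, in the second. HIST1H1C, HIST1H2BK, HIST1H1E and HIST2H2AC passed the filter with models that stop before the end of the stem-loop. A polyadenylation signal, AATAAA, lay within 2000 bases after the stem-loop in 15 of the 18 and in 19 of the 22. It began 12 bases after the stem-loop in HIST1H1C and in HIST1H2BD. These are matches of letters and not measured transcript ends.

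**Figure D1:**
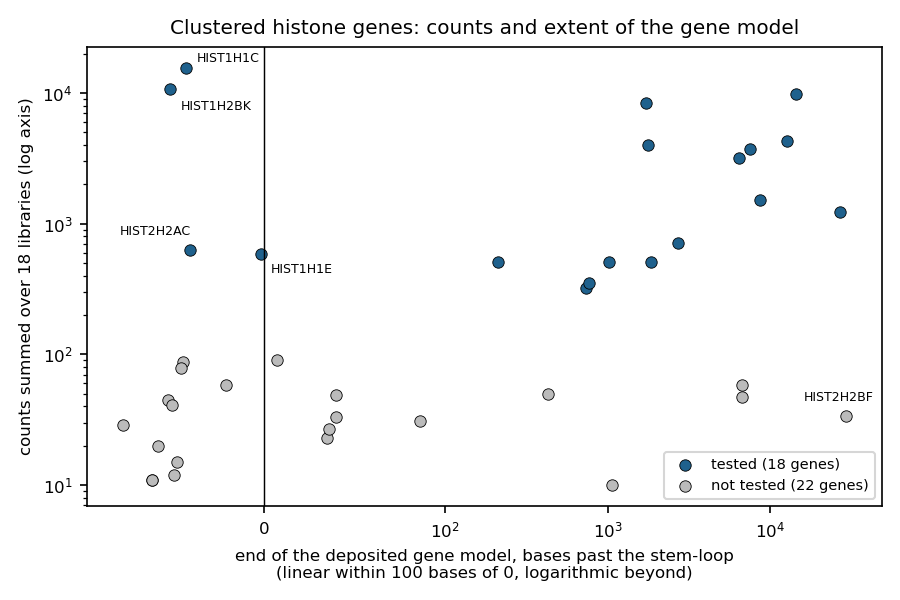
Counts of the 40 clustered histone genes summed over 18 libraries (log axis) against the end of the deposited gene model in bases past the stem-loop. Genes that passed the filter (blue) have at least 324 counts and genes that did not (grey) at most 90, and 14 of the 18 blue points lie more than 100 bases past the stem-loop.

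The 22 clustered genes left untested were near the limit of detection. Their counts summed over all 18 libraries ran from 10 to 90, and none exceeded 12 counts in any library. They include HIST1H4C and HIST1H3B, both known as abundant S-phase transcripts, with 58 and 45 counts in all. The 18 tested clustered genes held 98.7% of all clustered counts. HIST2H2AA3 and HIST2H2AA4, and HIST2H4A and HIST2H4B, are near-identical copies, so their counts may be split. The labels name the NEBNext Ultra RNA kit, and whether it was used with poly(A) selection is not given in the sources used here. The results below therefore describe the 29 members that were tested, which are 18 clustered genes and 11 of 12 variants. The variant not tested is H2AFB1, with 89 counts in all.

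Library totals ran from 15.4 to 21.9 M estimated counts. DNMT3A, counted over native and vector-borne transcripts alike, averaged 26.9 ± 0.662 CPM (SD, n = 3) in untreated EV, 133 ± 5.17 in WT and 456 ± 185 in MUT, where the libraries ran from 254 to 615, so the lines followed their labels. CPM are counts per M counts of the TMM-scaled library. Of 10 osteoblast and mesenchymal markers, 8 were in the table, with a summed level of 2260 to 3913 CPM that came mostly from VIM and SPARC. BGLAP, SPP1 and COL1A2 averaged under 1 CPM in untreated EV, and SP7 and IBSP were the markers not in the table. Of 10 markers of blood, endothelial, epithelial and liver cells, 9 were in the table, with a summed level of 4.18 to 18.9 CPM. With cytarabine, VIM fell and COL1A2 and CDH1 rose in all 3 lines (in EV, log2 values of -0.90, 2.20 and 1.15). The rise of COL1A2 in EV was between low levels, from 0.458 to 2.10 CPM. The part of these genes in the histone results was not tested. The untreated MUT libraries differed more from each other than those of any other group, with a chi-square per degree of freedom of 21.2 to 46.8 between pairs against 2.45 to 15.2 elsewhere. Untreated MUT replicate 3 and treated EV replicate 1 stood furthest from their groups, and counts without both are given where they differ. Replicate 2 was close to them in each group. In untreated MUT its pairs gave 21.2 and 46.8 and those of replicate 3 gave 25.3 and 46.8. In treated EV its pairs gave 15.2 and 7.5 and those of replicate 1 gave 15.2 and 9.19. In these bulk libraries, fewer cells in S phase and less histone mRNA per cell cannot be told apart.

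The clustered genes stood at lower levels than the variants. Their summed level in untreated EV was 151, 150.3 and 142 CPM, while the variants summed to 4181, 4159 and 4051 CPM. Per kb of canonical transcript in untreated EV, the highest members were H2AFZ at 903 CPM, H1F0 at 490.3, H3F3B at 370.5, H2AFX at 214 and H1FX at 198. The highest clustered genes were HIST1H2AC at 55.4, HIST1H2BK at 48.5 and HIST1H1C at 31.4 CPM per kb. With a SD of 4.96, 5.39 and 1.99 (n = 3), the first 2 of these clustered genes did not differ beyond their spread. The canonical transcripts may not match the stretches that were counted. That of HIST1H2AC has 519 bases, while its deposited model ends 14433 bases past the stem-loop. That of HIST1H2BK has 495 bases, while its model spans 382. Levels per kb are therefore approximate, and the order of these clustered genes is not firm.

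Clustered genes were highest in the WT line. Untreated WT cells gave a summed clustered level of 434, 456 and 417 CPM, above all EV libraries and above the 205, 175 and 225 CPM of untreated MUT. Of 18 clustered genes, 11 were higher and none lower in untreated WT than in untreated EV, at an adjusted p under 0.05 in edgeR's quasi-likelihood test with Benjamini-Hochberg adjustment over all 18226 tested genes (called edgeR adjusted p from here). The replicates of these 11 did not overlap, which adds little to calls already made on the same libraries. The share of such genes among all tested genes was not counted. In this comparison 11.7% of all tested genes were called, 4.30% as higher and 7.36% as lower. The median log2 fold change was 1.12 over the clustered genes and 0.00 over all tested genes. Among the 11 variants, none was called higher and 2 were lower, with a median of 0.03. Markers of other cell types summed to 4.18 to 4.32 CPM in untreated WT and 8.41 to 8.73 CPM in untreated EV. COL1A2 and SPARC were higher in untreated WT than in EV, at log2 differences of 2.05 and 0.38. COL1A1, ALPL, CDH1 and CDH5 were lower, at -1.48, -0.76, -2.10 and -1.80 (markers named after their values were seen). COL1A2, CDH1 and CDH5 were low, with means of at most 2.25 CPM in both groups. The part of these genes in the histone results was not tested.

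Set against untreated WT, untreated MUT had 13 of 18 clustered genes lower and none higher, where 21.2% of all tested genes were called, 11.7% as higher and 9.54% as lower. The median log2 difference was -1.02. The comparisons between lines in 1 state share libraries and are not independent, so their values stand side by side only. Against untreated EV, MUT had 3 clustered genes higher and 2 lower, with a median of 0.15, where 19.9% of all tested genes were called, 9.88% as higher and 10.0% as lower. Without untreated MUT replicate 3 and treated EV replicate 1, a choice made after seeing the data, 11 clustered genes were higher in untreated WT than EV and 11 lower in untreated MUT than WT. Of the genes called between untreated MUT and WT, 55.1% were higher with TMM scaling, 65.4% with DESeq2's size factors and 64.3% with the authors' own factors.

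WT was also the highest line after cytarabine. Treated WT cells had 12 clustered genes higher and none lower than treated EV (16.5% of all tested genes called, 7.41% as higher and 9.12% as lower), with a median log2 fold change of 0.99. Treated MUT cells had 14 clustered genes lower and none higher than treated WT (19.8% called, 10.4% as higher and 9.48% as lower), with a median of -1.33. Against treated EV, treated MUT cells had 5 clustered genes lower and none higher (14.0% called, 6.85% as higher and 7.13% as lower), with a median of -0.18.

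**Figure D2:**
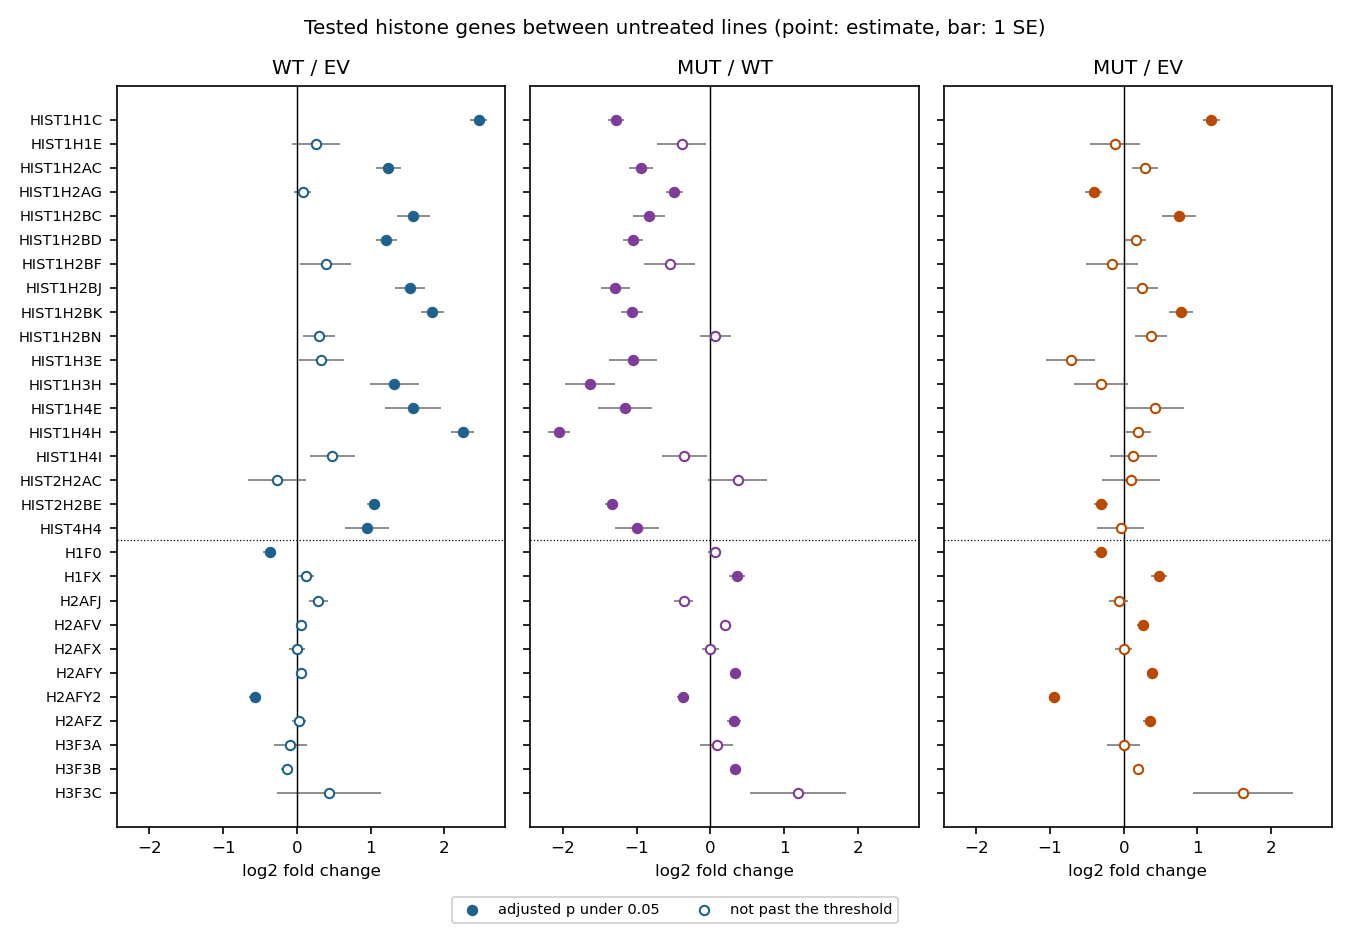
Log2 fold changes of the 29 tested histone genes between untreated lines, with 1 SE. Filled points have an adjusted p under 0.05 in the edgeR fit. Above the dotted line, 11 filled points lie right of 0 for WT against EV and 13 left of it for MUT against WT. With open points included, 17 and 16 of the 18 clustered genes lie on those sides. The variants below the line lie between -0.94 and 0.48 where filled.

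Genes of both classes fell with cytarabine. In EV, 8 of 18 clustered genes fell and 1 rose (49.1% of all tested genes called, 26.1% as higher and 22.9% as lower), with a median log2 fold change of -0.50. In WT, 10 fell and 1 rose (49.0% called, 26.3% as higher and 22.7% as lower), with a median of -0.70. In MUT, 10 fell and none rose (56.3% called, 30.4% as higher and 25.9% as lower), with a median of -0.95. The medians over all tested genes were 0.05, 0.03 and 0.05. Over both directions, the 9 of 18 called in EV and the 10 of 18 called in MUT are shares near the background. Of these, 8 of 9 in EV and all 10 in MUT were lower. Of the 11 variants, EV had 7 lower and none higher, WT had 7 lower and 1 higher, and MUT had 8 lower and 1 higher, with medians of -0.36, -0.45 and -0.45. Summed clustered levels after treatment were 101, 83.2 and 99.2 CPM in EV, 199, 206 and 226 CPM in WT and 78.9, 79.8 and 82.7 CPM in MUT. Each lay below its untreated group without overlap.

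**Figure D3:**
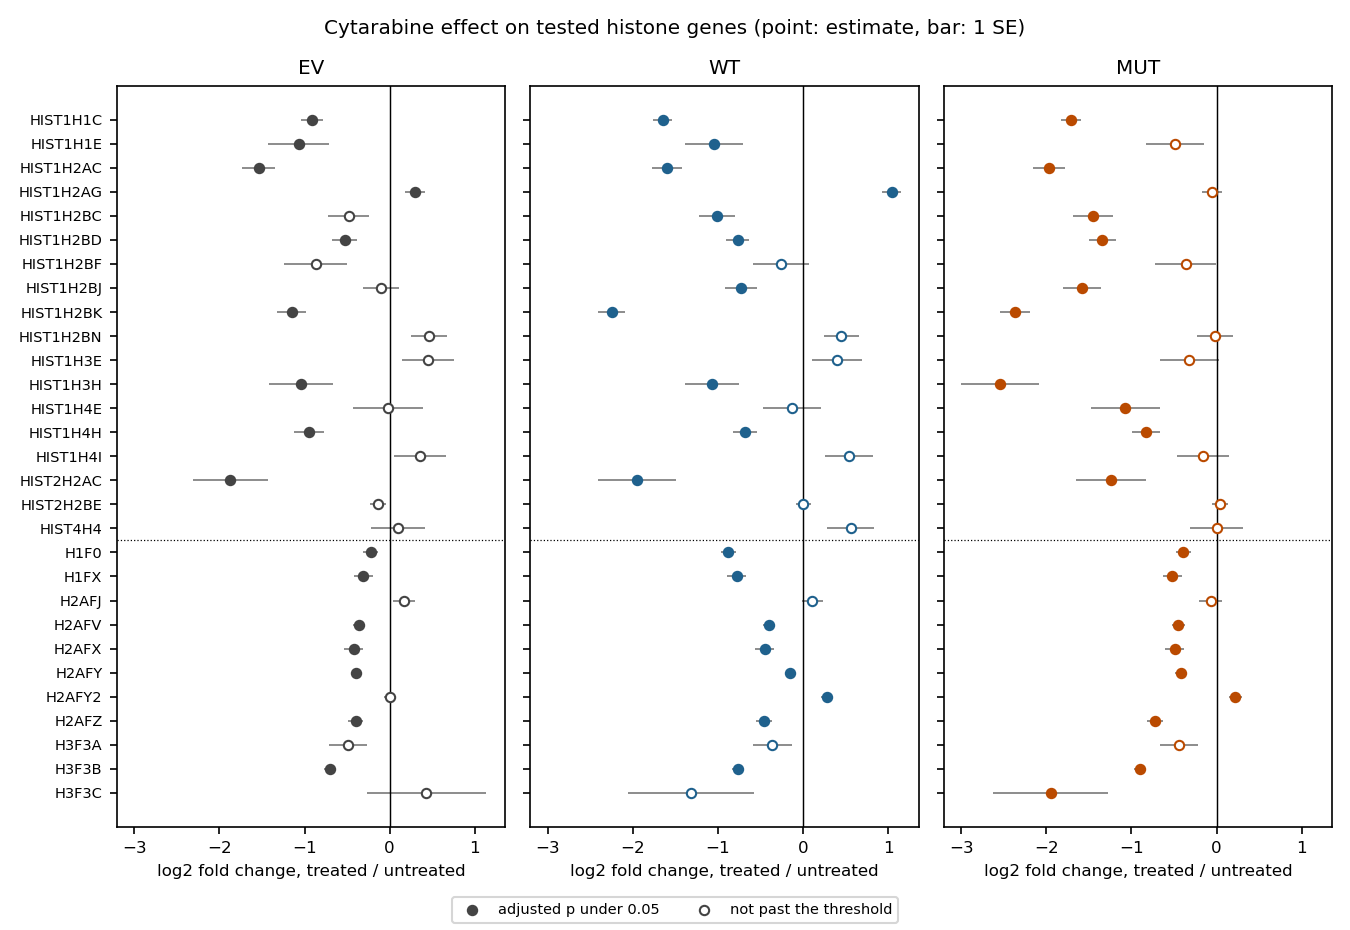
Log2 fold change after 24 h of cytarabine in each line for the 29 tested histone genes, with 1 SE. Filled points have an adjusted p under 0.05 in the edgeR fit. HIST1H2BK and HIST1H2AC lie far to the left in all 3 lines, and HIST1H2AG lies to the right in EV and WT.

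Of the clustered linker histone genes, 2 of 3 were tested. HIST1H1C (chromosome 6, 26055787 to 26056429, minus strand) encodes H1.2, a somatic linker histone that binds DNA between nucleosomes. It gave 24.4, 23.0 and 21.5 CPM in untreated EV, 130.3, 132 and 119 in untreated WT and 53.6, 42.0 and 61.4 in untreated MUT. The 3 lines did not overlap, with WT highest and MUT between. Against EV, WT was higher by a log2 fold change of 2.47 (SE 0.116, edgeR adjusted p 4.7e-11), which is 5.54-fold, and MUT by 1.19 (SE 0.116, edgeR adjusted p 1.4e-06). MUT was lower than WT, at -1.28 (SE 0.109, edgeR adjusted p 1.2e-07). After cytarabine the gene gave 13.7, 11.7 and 11.3 CPM in EV, 37.1, 38.6 and 45.7 in WT and 16.1, 16.8 and 15.0 in MUT. Every treated library lay below the untreated ones of its line. Treated WT exceeded treated EV by 1.72 (SE 0.122, edgeR adjusted p 1.4e-08). The log2 fold changes with treatment were -0.91 (SE 0.126, edgeR adjusted p 7.7e-06) in EV, -1.65 (SE 0.110, edgeR adjusted p 8.1e-10) in WT and -1.71 (SE 0.118, edgeR adjusted p 7.6e-10) in MUT.

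HIST1H1E, which encodes H1.4, was much lower. It gave 1.93, 2.57 and 1.91 CPM in untreated EV, 1.67, 2.96 and 3.08 in WT and 1.40, 1.57 and 2.91 in MUT. The lines overlapped and no untreated comparison passed the threshold. With cytarabine the values were 0.636, 1.12 and 1.28 CPM in EV, 1.30, 1.30 and 1.11 in WT and 1.85, 1.44 and 0.915 in MUT. It fell in EV, with a log2 value of -1.07 (SE 0.356, edgeR adjusted p 0.0178), and in WT, with -1.05 (SE 0.342, edgeR adjusted p 0.0157). Both calls were lost without single libraries, with an edgeR adjusted p of up to 0.0878 without treated EV replicate 1 and 0.0673 without untreated WT replicate 3. In MUT the log2 value was -0.49 (SE 0.343) and was not called.

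Among clustered H2A genes, HIST1H2AC (chromosome 6, 26124145 to 26139117, plus strand) was the highest in untreated cells. It gave 26.5, 31.5 and 28.3 CPM in untreated EV, 69.3, 71.5 and 63.0 in WT and 33.4, 24.7 and 47.6 in MUT. WT stood above both other lines, and MUT overlapped EV. WT exceeded EV by a log2 difference of 1.24 (SE 0.172, edgeR adjusted p 6.1e-05), and MUT against WT gave -0.94 (SE 0.169, edgeR adjusted p 5.8e-04). Cytarabine brought it to 9.39, 8.49 and 11.5 CPM in EV, 22.0, 21.1 and 24.0 in WT and 7.91, 7.61 and 11.5 in MUT. Treated and untreated libraries did not overlap in any line. The log2 fold changes were -1.54 (SE 0.189, edgeR adjusted p 1.7e-06) in EV, -1.60 (SE 0.173, edgeR adjusted p 3.6e-07) in WT and -1.97 (SE 0.188, edgeR adjusted p 4.9e-08) in MUT.

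HIST1H2AG (chromosome 6, 27133042 to 27135292, plus strand) was the clustered gene that rose. Its untreated levels were 9.64, 10.0 and 9.90 CPM in EV, 9.51, 11.5 and 10.4 in WT and 7.22, 7.30 and 7.82 in MUT. After cytarabine they were 10.9, 12.5 and 13.0 CPM in EV, 20.9, 22.5 and 21.0 in WT and 7.87, 5.98 and 7.76 in MUT. The treated WT libraries stood apart from all 15 others. It rose in WT by 1.04 (SE 0.110, edgeR adjusted p 2.8e-07), or 2.05-fold, and in EV by 0.30 (SE 0.114, edgeR adjusted p 0.0345). The call in EV held in 1 of 6 fits without a library, with an edgeR adjusted p of up to 0.135 without treated EV replicate 3. In MUT the log2 value was -0.05 (SE 0.119). Untreated MUT was below EV, at a log2 difference of -0.41 (SE 0.119, edgeR adjusted p 0.0209), with 0.0657 without untreated EV replicate 2. The effects in MUT and WT differed by -1.08 (SE 0.162, 95% interval -1.40 to -0.77, edgeR adjusted p 0.00307), a call that held in all 12 fits without a library. In this comparison 1.00% of all tested genes were called, 0.510% as higher, and 50.8% of the calls were higher with TMM scaling against 29.1% with DESeq2's size factors. HIST1H2AG was the only one of the 29 histone genes called.

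HIST2H2AC, on chromosome 1, was low and gave 3.56, 3.39 and 1.78 CPM in untreated EV, 2.06, 3.23 and 1.98 in WT and 2.76, 2.52 and 4.11 in MUT. The lines overlapped and did not pass the threshold. After cytarabine the values were 1.61, 0.312 and 0.428 CPM in EV, 0.649, 0.432 and 0.774 in WT and 1.19, 1.10 and 1.66 in MUT. Its log2 fold changes were -1.87 (SE 0.442, edgeR adjusted p 0.00166) in EV, -1.95 (SE 0.456, edgeR adjusted p 0.00148) in WT and -1.24 (SE 0.411, edgeR adjusted p 0.0148) in MUT. The last was lost in 2 of 6 fits, with 0.0559 without untreated MUT replicate 3.

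**Figure D4:**
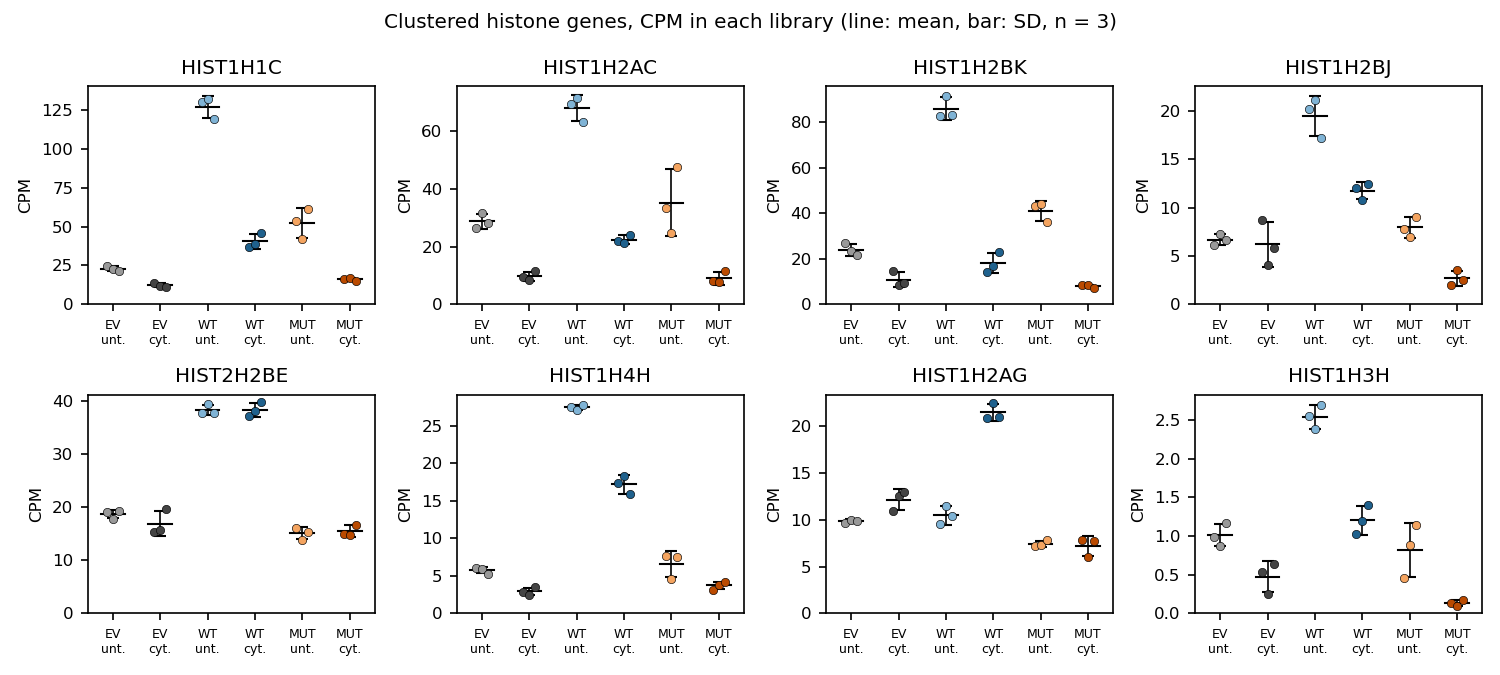
CPM of 8 clustered histone genes in each of the 18 libraries, with the mean and SD of 3 replicates. Untreated WT is highest for HIST1H1C, HIST1H2AC, HIST1H2BK, HIST1H2BJ, HIST1H4H and HIST1H3H, treated WT is highest for HIST1H2AG, and HIST2H2BE is about the same before and after treatment.

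H2B genes made up the largest clustered class, with 7 of 12 tested. Untreated WT had 5 of the 7 higher than EV, with a median of 1.21, where 4.30% of all tested genes were higher. Untreated MUT had 5 lower than WT, where 9.54% of all tested genes were lower. These genes are part of the clustered counts given above. HIST1H2BK (chromosome 6, 27146418 to 27146799, minus strand), a gene known for a polyadenylated transcript, gave 26.9, 23.4 and 21.7 CPM in untreated EV, 82.6, 91.7 and 83.3 in WT and 43.4, 44.0 and 36.0 in MUT. The 3 lines did not overlap. WT exceeded EV by 1.84 (SE 0.159, edgeR adjusted p 1.9e-07) and MUT exceeded EV by 0.78 (SE 0.160, edgeR adjusted p 0.00201) on the log2 scale. Treated libraries gave 14.5, 8.62 and 9.24 CPM in EV, 14.4, 16.8 and 22.9 in WT and 8.30, 8.38 and 7.15 in MUT. Treated EV replicate 1 was the highest of its group. The gene fell, with log2 values of -1.15 (SE 0.173, edgeR adjusted p 1.8e-05) in EV, -2.25 (SE 0.161, edgeR adjusted p 1.9e-09) in WT and -2.37 (SE 0.173, edgeR adjusted p 1.6e-09) in MUT, the last a level 5.18-fold lower.

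The fall of HIST1H2BK was larger in MUT than in EV, with a difference of log2 effects of -1.22 (SE 0.244, 95% interval -1.70 to -0.74, edgeR adjusted p 0.0399). Across all tested genes 0.214% were called in this comparison, 0.0604% as lower, and 71.8% of the calls were higher with TMM scaling against 48.1% with DESeq2's size factors. HIST1H2BK was the only histone gene called. The call held in 5 of 12 fits without a library, with an edgeR adjusted p of up to 0.142 without treated MUT replicate 3. HIST1H2BJ, HIST1H1C and HIST1H2BD had differences between MUT and EV of -1.48 (SE 0.309, 95% interval -2.08 to -0.87, edgeR adjusted p 0.0537), -0.81 (SE 0.172, 95% interval -1.14 to -0.47, edgeR adjusted p 0.055) and -0.81 (SE 0.215, 95% interval -1.23 to -0.39, edgeR adjusted p 0.105), none past the threshold. Among clustered genes, HIST1H3H had the largest difference between MUT and EV, -1.51, and was not called. For HIST1H2BK the difference between WT and EV was -1.10 (SE 0.234, 95% interval -1.56 to -0.64, edgeR adjusted p 0.0532).

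HIST1H2BJ, a neighbour of HIST1H2AG, gave 6.19, 7.30 and 6.64 CPM in untreated EV, 20.2, 21.2 and 17.2 in WT and 7.82, 6.98 and 9.08 in MUT. WT stood apart from both other lines, with 1.54 (SE 0.202, edgeR adjusted p 3.3e-05) against EV. Cytarabine gave 8.75, 4.12 and 5.82 CPM in EV, 12.0, 10.8 and 12.5 in WT and 1.98, 3.54 and 2.53 in MUT. It fell in WT, with a log2 value of -0.73 (SE 0.191, edgeR adjusted p 0.00372), and in MUT, with -1.58 (SE 0.225, edgeR adjusted p 7.6e-06). In EV treated and untreated libraries overlapped and the log2 value was -0.10 (SE 0.212). Treated MUT lay below treated EV and treated WT, at -1.23 (SE 0.227, edgeR adjusted p 0.00121) and -2.14 (SE 0.219, edgeR adjusted p 1.4e-06).

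HIST1H2BD (chromosome 6, 26158146 to 26171350, plus strand) gave 10.2, 10.5 and 11.9 CPM in untreated EV, 26.3, 25.1 and 23.9 in WT and 12.9, 10.4 and 13.0 in MUT. The treated values were 9.54, 5.62 and 7.23 CPM in EV, 13.7, 14.8 and 15.8 in WT and 5.32, 4.21 and 4.84 in MUT. WT was the highest line in both states. The untreated log2 difference between WT and EV was 1.21 (SE 0.142, edgeR adjusted p 8.4e-06). The gene fell, with log2 values of -0.53 (SE 0.150, edgeR adjusted p 0.00669) in EV, -0.77 (SE 0.137, edgeR adjusted p 1.2e-04) in WT and -1.34 (SE 0.154, edgeR adjusted p 5.2e-07) in MUT.

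HIST1H2BC, which starts 218 bases from HIST1H2AC on the other strand, gave 3.62, 2.51 and 3.20 CPM in untreated EV, 9.71, 8.84 and 9.29 in WT and 5.32, 4.59 and 5.77 in MUT. WT was higher than EV by 1.58 (SE 0.224, edgeR adjusted p 8.0e-05). MUT was higher than EV by 0.75 (SE 0.229, edgeR adjusted p 0.0267), held in 2 of 6 fits without a library (0.121 without untreated EV replicate 2). Treated libraries gave 2.10, 1.62 and 2.87 CPM in EV, 3.94, 3.73 and 6.09 in WT and 2.15, 2.20 and 1.39 in MUT. It fell, with -1.01 (SE 0.214, edgeR adjusted p 5.9e-04) in WT and -1.45 (SE 0.235, edgeR adjusted p 3.3e-05) in MUT, and the value in EV, -0.48 (SE 0.243), was not called.

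HIST2H2BE (chromosome 1, 149884459 to 149886653, minus strand) differed between lines with no called drug effect. Its untreated levels were 19.0, 17.8 and 19.2 CPM in EV, 37.7, 39.4 and 37.8 in WT and 16.0, 13.8 and 15.4 in MUT. After cytarabine they were 15.4, 15.6 and 19.7 CPM in EV, 37.2, 38.0 and 39.8 in WT and 14.9, 14.8 and 16.7 in MUT. WT stood above both other lines in both states, and treated and untreated libraries of a line overlapped. The log2 difference between WT and EV was 1.04 (SE 0.0929, edgeR adjusted p 3.1e-07) untreated and 1.18 (SE 0.0925, edgeR adjusted p 5.2e-08) treated. Untreated MUT against WT gave -1.34 (SE 0.0942, edgeR adjusted p 8.1e-09). The cytarabine effects were -0.14 (SE 0.0957) in EV, 0.00 (SE 0.0886) in WT and 0.04 (SE 0.0966) in MUT, none called. Untreated MUT was lower than EV, at a log2 difference of -0.31 (SE 0.0972, edgeR adjusted p 0.0318), a call that held in 1 of 6 fits without a library (0.129 without untreated MUT replicate 2).

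The 2 other tested H2B genes, HIST1H2BF and HIST1H2BN, passed the threshold in none of the comparisons. HIST1H2BF ranged from 0.470 to 1.48 CPM over all libraries and HIST1H2BN from 2.03 to 4.64 CPM. HIST1H2BN overlaps HIST1H2AK on the opposite strand, and how strand was handled is not given in the sources used here.

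Of the 4 clustered H3 genes, 2 were tested and both were low. HIST1H3H (chromosome 6, 27810064 to 27811301, plus strand) gave 0.993, 0.876 and 1.17 CPM in untreated EV, 2.55, 2.38 and 2.69 in WT and 0.451, 0.881 and 1.14 in MUT. Treated libraries gave 0.538, 0.250 and 0.641 CPM in EV, 1.02, 1.19 and 1.40 in WT and 0.132, 0.0958 and 0.174 in MUT, the last from as few as 2 counts. WT was highest in both states. The log2 fold change with cytarabine was -2.54 (SE 0.457, edgeR adjusted p 1.0e-04) in MUT and -1.07 (SE 0.323, edgeR adjusted p 0.00938) in WT. In EV it was -1.04 (SE 0.378, edgeR adjusted p 0.0288), a call that held in 3 of 6 fits (0.114 without treated EV replicate 2). Untreated WT was above EV by 1.32 (SE 0.333, edgeR adjusted p 0.0125), with 0.0622 without untreated EV replicate 2. MUT was below WT, at -1.63 (SE 0.340, edgeR adjusted p 0.00197) untreated and -3.10 (SE 0.437, edgeR adjusted p 5.5e-05) treated. Treated MUT was also below treated EV, at -1.81 (SE 0.478, edgeR adjusted p 0.0158), with 0.089 without treated EV replicate 3.

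HIST1H3E gave 1.46, 1.40 and 1.29 CPM in untreated EV, 1.42, 2.54 and 1.26 in WT and 1.00, 0.881 and 0.628 in MUT. With cytarabine it gave 1.71, 1.87 and 2.10 CPM in EV, 1.99, 3.03 and 1.89 in WT and 0.615, 0.527 and 0.872 in MUT. MUT was the lowest line in both states, and no cytarabine effect was called. Treated MUT was below treated EV, at a log2 difference of -1.48 (SE 0.318, edgeR adjusted p 0.00403) and below treated WT, at a log2 difference of -1.76 (SE 0.315, edgeR adjusted p 5.5e-04). The untreated call against WT, -1.05 (SE 0.321, edgeR adjusted p 0.0252), was lost without untreated WT replicate 2 (0.202).

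Among the 4 tested H4 genes, HIST1H4H (chromosome 6, 26277609 to 26285639, minus strand) showed the widest gap between lines. It gave 6.02, 5.96 and 5.29 CPM in untreated EV, 27.5, 27.1 and 27.8 in WT and 7.67, 4.59 and 7.48 in MUT. Treated values were 2.88, 2.50 and 3.46 CPM in EV, 17.3, 18.3 and 15.9 in WT and 3.16, 3.78 and 4.18 in MUT. Every WT library, treated or not, lay above every library of the other lines. WT exceeded EV by 2.25 (SE 0.154, edgeR adjusted p 7.2e-09) untreated, or 4.76-fold, and by 2.52 (SE 0.164, edgeR adjusted p 4.4e-09) treated. MUT against WT gave -2.05 (SE 0.151, edgeR adjusted p 1.7e-08) untreated and -2.21 (SE 0.158, edgeR adjusted p 1.4e-08) treated. With cytarabine it fell, with log2 values of -0.95 (SE 0.176, edgeR adjusted p 1.8e-04) in EV, -0.68 (SE 0.140, edgeR adjusted p 4.7e-04) in WT and -0.83 (SE 0.167, edgeR adjusted p 2.9e-04) in MUT.

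HIST1H4E gave 0.526, 0.993 and 1.17 CPM in untreated EV, 1.91, 3.76 and 2.42 in WT and 1.40, 0.566 and 1.60 in MUT. After cytarabine it gave 1.03, 0.499 and 1.07 CPM in EV, 2.69, 2.16 and 2.51 in WT and 0.527, 0.527 and 0.654 in MUT. WT stood above EV in both states. WT exceeded EV by 1.58 (SE 0.378, edgeR adjusted p 0.00859) untreated and 1.47 (SE 0.371, edgeR adjusted p 0.0099) treated, the first lost without untreated WT replicate 2 (0.0687). In MUT it fell, with log2 values of -1.07 (SE 0.408, edgeR adjusted p 0.0323), although treated and untreated libraries overlapped, and the call held in 2 of 6 fits (0.122 without untreated MUT replicate 3).

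HIST4H4, the member on chromosome 12, gave 1.46, 1.64 and 1.05 CPM in untreated EV, 2.21, 2.43 and 3.41 in WT and 1.55, 1.32 and 1.14 in MUT. The treated values were 1.12, 1.06 and 2.18 CPM in EV, 3.76, 3.94 and 4.16 in WT and 1.14, 1.87 and 1.05 in MUT. Treated WT was above treated EV by 1.41 (SE 0.288, edgeR adjusted p 0.00208). The untreated call, 0.95 (SE 0.301, edgeR adjusted p 0.0464), was lost in all 6 fits without a library, up to 0.205 without untreated WT replicate 3. No cytarabine effect was called.

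HIST1H4I was between 0.791 and 2.49 CPM in all libraries. It gave 1.17, 0.993 and 1.23 CPM in untreated EV, 1.77, 1.85 and 1.10 in WT and 1.05, 1.01 and 1.66 in MUT. After cytarabine the values were 1.22, 1.56 and 1.58 CPM in EV, 2.09, 2.49 and 2.32 in WT and 0.791, 1.58 and 0.959 in MUT. Only treated MUT against treated WT was called, at -1.05 (SE 0.292, edgeR adjusted p 0.015), and this was lost without treated MUT replicate 1 (0.0871).

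The clustered genes were also read by whether they are known for polyadenylated transcripts. Of 11 such genes listed from general knowledge, 10 were in the table and 9 were tested. All 9 were higher in untreated WT than in EV, with a median log2 fold change of 1.54, and all 9 were lower in untreated MUT than in WT, with a median of -1.06. The call of HIST4H4 between WT and EV was lost in every fit without 1 library. Of the other 9 tested clustered genes, 2 were higher in untreated WT than in EV, with a median of 0.33, and 4 were lower in MUT than in WT. Of all tested genes, 4.30% were higher in untreated WT than in EV and 9.54% lower in untreated MUT than in WT. After cytarabine 5, 7 and 7 of the 9 polyadenylated genes fell in EV, WT and MUT, against 3 of the other 9 in each line. Of all tested genes, 22.9%, 22.7% and 25.9% fell in these lines, so the count for the other 9 was near the background. The median log2 fold changes were -0.53, -0.77 and -1.45 for the first set and -0.02, -0.13 and -0.36 for the second. Counts per gene over all libraries ran from 715 to 15540 in the first set and from 324 to 4008 in the second. A change of the same size is harder to call at low counts, so the numbers of calls in the 2 sets are not directly comparable.

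Other genes within the HIST1 cluster were read beside its members. The HIST1 members span 1.85 Mb of chromosome 6, from 26017085 to 27865799, and 9 of 15 tested were higher in untreated WT than in EV. Of the 21 other tested genes inside this span, 2 were higher and none lower, with a median log2 fold change of 0.20. Over both directions this is near the 11.7% of all tested genes called, but both were higher, where 4.30% of all were. Between untreated MUT and WT, 1 of these 21 neighbours was higher and 4 were lower, where 11.7% of all tested genes were higher and 9.54% lower. Outside chromosome 6, 2 of the 3 tested HIST2 and HIST4 genes, HIST2H2BE and HIST4H4, were higher in untreated WT than in EV.

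Histone H2A and H2B genes often lie head to head and share the DNA between their starts, and 3 such pairs had both genes tested. HIST1H2BC and HIST1H2AC start 218 bases apart, and in WT their cytarabine effects were -1.01 and -1.60 on the log2 scale, both called. HIST1H2BJ and HIST1H2AG start 291 bases apart, and in WT the first fell, with -0.73 (SE 0.191) while the second rose, with 1.04 (SE 0.110). HIST2H2BE and HIST2H2AC start 322 bases apart, and in WT the first had 0.00 (SE 0.0886) while the second had -1.95 (SE 0.456) and was called. The differences within pairs were not tested.

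The 250 bases upstream of HIST1H2BK and HIST1H2AG are shown because these are the clustered genes whose cytarabine effect differed between lines. They are RefSeq sequences of GRCh38.p14, at chr6:27146859-27147108 on the minus strand and chr6:27132793-27133042 on the plus strand, 5′ to 3′ on the strand of the gene. Capitals mark matches, on both strands, to the octamer ATTTGCAT, to CCAAT and to TATAAA, and overlapping matches were counted separately.
HIST1H2BK: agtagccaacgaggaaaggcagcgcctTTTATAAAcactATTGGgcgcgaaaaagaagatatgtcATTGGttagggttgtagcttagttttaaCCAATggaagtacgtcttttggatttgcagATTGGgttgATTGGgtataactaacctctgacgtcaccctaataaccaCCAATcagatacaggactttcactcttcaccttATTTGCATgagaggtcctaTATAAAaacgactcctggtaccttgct
HIST1H2AG: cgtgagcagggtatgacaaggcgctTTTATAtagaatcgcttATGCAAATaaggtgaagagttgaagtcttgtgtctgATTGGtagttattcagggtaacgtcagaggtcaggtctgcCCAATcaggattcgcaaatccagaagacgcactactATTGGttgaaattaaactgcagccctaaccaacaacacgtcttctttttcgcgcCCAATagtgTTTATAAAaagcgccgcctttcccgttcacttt
HIST1H2BK had 1 octamer, 6 CCAAT and 3 TATAAA matches, and HIST1H2AG had 1, 4 and 3. In such windows the octamer was found in 9 of 12 clustered H2B genes, 6 of 10 clustered H2A genes, none of 16 H1, H3 and H4 genes and 1 of 10 variants, against 2.15% of 15842 protein-coding genes. CCAAT was found in 30 of 38 clustered genes against 40.2% of all, and TATAAA in 27 of 38 against 11.9%. These matches describe the sequence and are not measured binding. The window of HIST1H2BK lies between its start and that of HIST1H2AH, 330 bases apart. The window of HIST1H2AG lies between its start and that of HIST1H2BJ, 291 bases apart. A match in a stretch shared by 2 genes cannot be assigned to 1 of them.

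Among the variants, the linker histones come first. H1F0 (chromosome 22, 37805093 to 37807437, plus strand) encodes H1.0, the linker histone of quiescent and differentiated cells. It gave 1075, 1095 and 1071 CPM in untreated EV, 794, 860.3 and 851 in WT and 897, 858 and 856 in MUT. EV was the highest line, and WT and MUT overlapped. Cytarabine gave 934, 887 and 965 CPM in EV, 457, 390.2 and 510.4 in WT and 704, 570.4 and 716 in MUT. It fell, with log2 values of -0.88 (SE 0.0893, edgeR adjusted p 1.5e-07) in WT and -0.39 (SE 0.0886, edgeR adjusted p 9.3e-04) in MUT. The call in EV, -0.22 (SE 0.0885, edgeR adjusted p 0.0477), was lost in all 6 fits without a library, up to 0.136 without treated EV replicate 2. The effects in WT and EV differed by -0.67 (SE 0.125, 95% interval -0.91 to -0.42, edgeR adjusted p 0.0303), where 0.285% of all tested genes were called, 50% of them as higher with TMM scaling and 68.8% with the authors' factors. This difference held in 2 of 12 fits, up to 0.0998 without untreated WT replicate 2. Untreated WT was below EV, at a log2 difference of -0.37 (SE 0.0886, edgeR adjusted p 0.00854), with 0.0511 without untreated WT replicate 1, and untreated MUT was below EV, at a log2 difference of -0.31 (SE 0.0885, edgeR adjusted p 0.0179), with 0.059 without untreated EV replicate 2.

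H1FX, which encodes the linker histone H1X, gave 311, 297 and 295 CPM in untreated EV, 316, 347 and 319 in WT and 393, 352 and 512 in MUT. After cytarabine it gave 252, 227 and 247 CPM in EV, 180.0, 182 and 210.1 in WT and 324, 255 and 294 in MUT. Treated libraries lay below untreated ones in every line. It fell, with -0.78 (SE 0.110, edgeR adjusted p 9.7e-06) in WT and -0.52 (SE 0.110, edgeR adjusted p 4.5e-04) in MUT. In EV it was -0.31 (SE 0.110, edgeR adjusted p 0.023), lost in 2 of 6 fits (0.0836 without treated EV replicate 2). Untreated MUT was above EV by 0.48 (SE 0.110, edgeR adjusted p 0.0045) and above WT by 0.36 (SE 0.110, edgeR adjusted p 0.0252), the latter 0.0903 without untreated WT replicate 1. Treated MUT was above treated WT by 0.61 (SE 0.110, edgeR adjusted p 6.0e-04). Treated WT against treated EV gave -0.34 (SE 0.110, edgeR adjusted p 0.0391), or 0.149 without treated WT replicate 2.

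**Figure D5:**
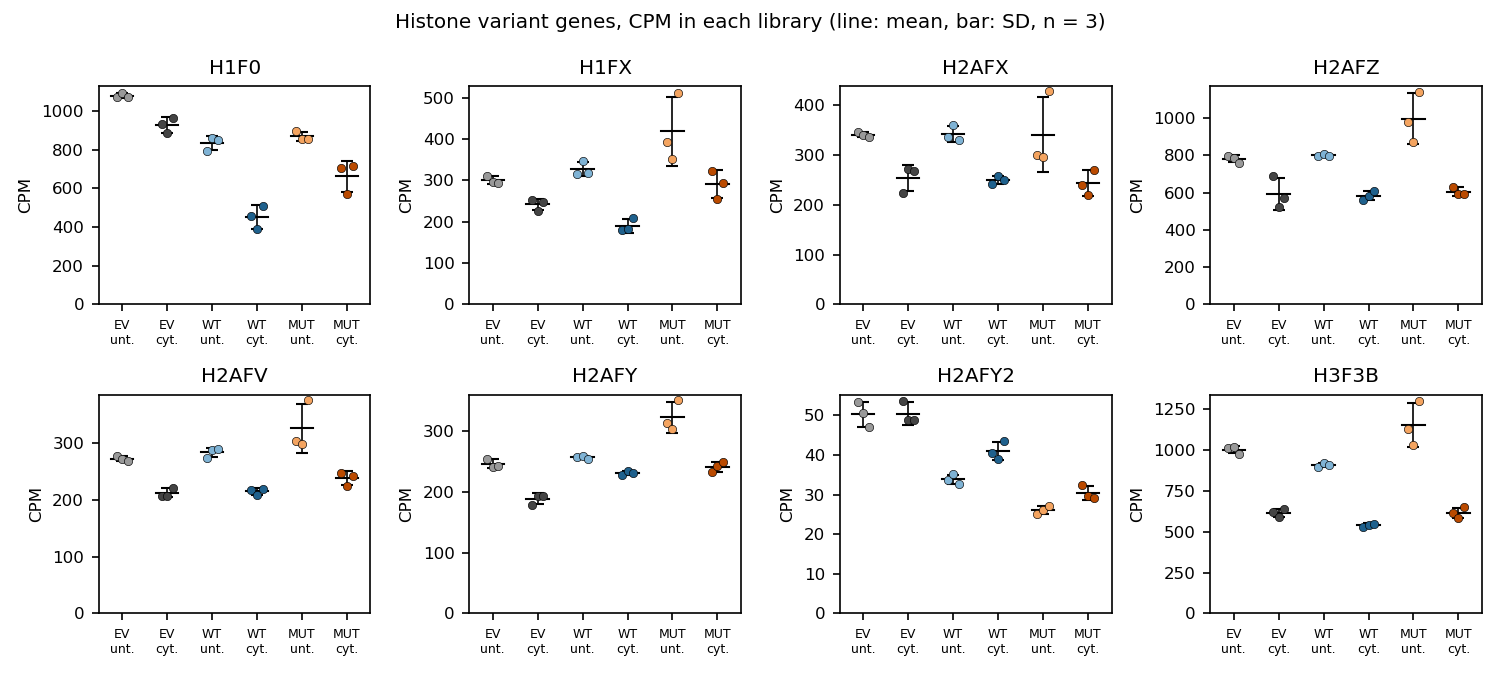
CPM of 8 histone variant genes in each of the 18 libraries, with the mean and SD of 3 replicates. H3F3B falls in all 3 lines without overlap, H2AFY2 differs between lines, and untreated MUT replicate 3 is the highest library of its group for each gene shown but H1F0.

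H2AFZ and H2AFV encode the H2A.Z proteins, found near promoters. H2AFZ (chromosome 4, 99948086 to 99950389, minus strand) gave 799, 786 and 761 CPM in untreated EV, 799, 805 and 797 in WT and 977, 871 and 1141 in MUT. Treated values were 690.2, 523 and 569.7 CPM in EV, 559, 582 and 609 in WT and 632, 592 and 592 in MUT. It fell without overlap, with log2 values of -0.40 (SE 0.0925, edgeR adjusted p 0.00148) in EV, -0.46 (SE 0.0925, edgeR adjusted p 4.1e-04) in WT and -0.72 (SE 0.0927, edgeR adjusted p 2.2e-06) in MUT. Untreated MUT was above EV by 0.35 (SE 0.0924, edgeR adjusted p 0.0117), with 0.0529 without untreated EV replicate 3.

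H2AFV gave 277, 273 and 269 CPM in untreated EV, 275, 289 and 289.5 in WT and 305, 299.5 and 377 in MUT. After treatment it gave 208, 208 and 222 CPM in EV, 217, 209 and 219.8 in WT and 248, 225 and 243 in MUT. It fell, with log2 values of -0.36 (SE 0.0752, edgeR adjusted p 5.7e-04) in EV, -0.40 (SE 0.0751, edgeR adjusted p 1.9e-04) in WT and -0.45 (SE 0.0750, edgeR adjusted p 4.1e-05) in MUT. The effects in MUT and EV differed by -0.09 (SE 0.106, 95% interval -0.30 to 0.11, edgeR adjusted p 0.712).

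H2AFX encodes H2A.X, which is phosphorylated beside DNA breaks, and its mRNA is known in both stem-loop and polyadenylated form. It gave 346, 340.1 and 337 CPM in untreated EV, 336, 360.1 and 330.0 in WT and 299, 296 and 428 in MUT. The lines overlapped and no difference between lines was called, treated or untreated. Cytarabine gave 224, 272 and 267 CPM in EV, 241, 258 and 249.8 in WT and 240.3, 219 and 270.3 in MUT. The log2 fold changes were -0.42 (SE 0.113, edgeR adjusted p 0.00433) in EV, -0.45 (SE 0.113, edgeR adjusted p 0.00247) in WT and -0.49 (SE 0.113, edgeR adjusted p 0.00116) in MUT.

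The macroH2A genes moved in different directions. H2AFY gave 255, 241 and 243 CPM in untreated EV, 257, 259 and 255 in WT and 313, 304 and 351 in MUT. Treated libraries gave 178, 194 and 194 CPM in EV, 228, 234 and 231 in WT and 233, 243 and 249 in MUT. MUT was the highest untreated line. It fell, with log2 values of -0.39 (SE 0.0630, edgeR adjusted p 4.7e-05) in EV and -0.42 (SE 0.0627, edgeR adjusted p 1.4e-05) in MUT. The call in WT, -0.15 (SE 0.0627, edgeR adjusted p 0.0495), was lost in all 6 fits without a library, up to 0.132 without treated WT replicate 1. Untreated MUT was above EV by 0.39 (SE 0.0628, edgeR adjusted p 2.9e-04) and above WT by 0.33 (SE 0.0627, edgeR adjusted p 0.00101), and treated MUT was above treated EV by 0.36 (SE 0.0629, edgeR adjusted p 8.3e-04).

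H2AFY2 (chromosome 10, 70052796 to 70112281, plus strand) was the variant with the widest called difference between untreated lines. Its untreated levels were 53.3, 50.5 and 47.0 CPM in EV, 33.7, 35.1 and 32.6 in WT and 25.1, 26.0 and 27.2 in MUT. The 3 lines did not overlap and MUT was lowest. MUT was below EV, at a log2 difference of -0.94 (SE 0.0746, edgeR adjusted p 1.2e-07), or 1.92-fold, and WT was below EV, at a log2 difference of -0.57 (SE 0.0731, edgeR adjusted p 2.3e-05). With cytarabine the values were 53.7, 48.7 and 48.8 CPM in EV, 40.6, 39.0 and 43.5 in WT and 32.5, 29.6 and 29.1 in MUT. The gene rose in WT by 0.28 (SE 0.0730, edgeR adjusted p 0.0035) and in MUT by 0.22 (SE 0.0750, edgeR adjusted p 0.0178), the latter lost in 3 of 6 fits (0.092 without treated MUT replicate 1). In EV the value was 0.00 (SE 0.0718). Treated WT was below treated EV, at -0.30 (SE 0.0718, edgeR adjusted p 0.00764), with 0.0523 without treated WT replicate 2. H2AFY2 overlaps AIFM2 on the opposite strand.

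H2AFJ gave 15.9, 18.1 and 17.2 CPM in untreated EV, 22.4, 22.5 and 17.5 in WT and 14.4, 13.5 and 20.8 in MUT. Treated libraries gave 18.9, 19.0 and 19.6 CPM in EV, 23.9, 20.7 and 22.7 in WT and 15.3, 15.1 and 16.0 in MUT. No cytarabine effect was called, and treated MUT was below treated WT, at a log2 difference of -0.53 (SE 0.129, edgeR adjusted p 0.00606).

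The H3.3 genes differ in level. H3F3B (chromosome 17, 75776434 to 75785894, minus strand) gave 1012, 1018 and 976 CPM in untreated EV, 898, 919 and 911 in WT and 1129, 1031 and 1299 in MUT. After cytarabine it gave 621, 591 and 639 CPM in EV, 526, 539.9 and 549.7 in WT and 613, 587 and 649.6 in MUT. The treated libraries of all lines lay below all untreated ones. It fell, with log2 values of -0.70 (SE 0.0713, edgeR adjusted p 1.7e-07) in EV, -0.76 (SE 0.0714, edgeR adjusted p 6.5e-08) in WT and -0.90 (SE 0.0715, edgeR adjusted p 4.4e-09) in MUT. Untreated MUT was above WT by 0.34 (SE 0.0710, edgeR adjusted p 0.0019). H3F3B overlaps UNK on the opposite strand.

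H3F3A gave 34.0, 37.2 and 33.3 CPM in untreated EV, 33.1, 34.2 and 31.1 in WT and 29.0, 20.7 and 55.1 in MUT. Treated values were 19.0, 27.0 and 28.5 CPM in EV, 27.8, 26.7 and 22.3 in WT and 23.6, 27.5 and 26.3 in MUT. Its log2 values of -0.49 (SE 0.227) in EV, -0.36 (SE 0.225) in WT and -0.44 (SE 0.224) in MUT did not pass the threshold. The processed pseudogene H3F3AP4 had 46.6 ± 5.45 CPM (SD, n = 3) in untreated EV, above H3F3A itself at 34.8 ± 2.10, so reads of H3F3A may be split between them. Expressed as log2 fold changes with treatment, H3F3AP4 fell in each line, with EV at -0.46 (edgeR adjusted p 0.00158), WT at -0.67 (edgeR adjusted p 4.7e-05) and MUT at -0.54 (edgeR adjusted p 3.0e-04).

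H3F3C was the lowest tested variant. It gave 1.40, 2.10 and 1.35 CPM in untreated EV, 1.96, 2.43 and 2.20 in WT and 4.16, 9.94 and 1.03 in MUT. With cytarabine it gave 5.28, 0.437 and 0.770 CPM in EV, 0.742, 0.919 and 0.967 in WT and 1.85, 1.15 and 0.872 in MUT. Treated EV replicate 1 and untreated MUT replicate 2 stood far above the other libraries of their groups. It was called lower with cytarabine in MUT, at -1.95 (SE 0.679, edgeR adjusted p 0.0197), although the groups overlapped, and the edgeR adjusted p was 0.19 without untreated MUT replicate 2.

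Between lines, variants were called in both directions. Untreated MUT had 4 variants higher and 2 lower than EV, and 4 higher and 1 lower than WT. Treated MUT had 1 higher and 2 lower than treated EV and 2 higher and 2 lower than treated WT, and treated WT had 1 higher and 3 lower than treated EV. Of all tested genes, 19.9% were called between untreated MUT and EV, 21.2% between untreated MUT and WT, 14.0% between treated MUT and EV, 19.8% between treated MUT and WT and 16.5% between treated WT and EV. The largest of these was H1F0, at -1.04 (SE 0.0895, edgeR adjusted p 1.6e-07) for treated WT against EV. Treated MUT was above treated WT for the same gene, by 0.55 (SE 0.0889, edgeR adjusted p 2.1e-04).

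Genes that make, process and degrade histone mRNA were read beside the members, from a list of 30 of which 28 were tested. With cytarabine EV had 2 higher and 16 lower, WT 5 and 12, and MUT 5 and 14, with medians of -0.27, -0.18 and -0.20. Of all tested genes, 26.1% were higher and 22.9% lower in EV, 26.3% and 22.7% in WT, and 30.4% and 25.9% in MUT. None was called between untreated WT and EV in edgeR, where 11.7% of all tested genes were called and 1 of the list had an unadjusted p under 0.05. SLBP, which binds the stem-loop, fell, with log2 values of -0.48 (edgeR adjusted p 0.00117) in EV and -0.26 (edgeR adjusted p 0.0447) in MUT, and had -0.19 (edgeR adjusted p 0.146) in WT. CASP8AP2, a protein of the histone locus body, rose by 0.41 (edgeR adjusted p 0.00536) in EV, 0.34 (edgeR adjusted p 0.0171) in WT and 0.95 (edgeR adjusted p 8.3e-07) in MUT. NPAT, the coactivator of histone transcription that cyclin E and CDK2 act on, rose in MUT by 0.40 (edgeR adjusted p 0.00359) and had 0.01 in EV and 0.14 in WT. Of the Sm proteins, which build the U7 and other snRNPs, SNRPB had -0.84 (edgeR adjusted p 7.9e-05) in EV, -0.50 (edgeR adjusted p 0.00637) in WT and -0.76 (edgeR adjusted p 1.7e-04) in MUT. SNRPD3 had -0.48 (edgeR adjusted p 8.2e-04) in EV, -0.54 (edgeR adjusted p 2.8e-04) in WT and -0.73 (edgeR adjusted p 8.7e-06) in MUT. CSTF2, a 3′ end processing factor, had -0.61 (edgeR adjusted p 1.0e-06) in EV, -0.48 (edgeR adjusted p 1.9e-05) in WT and -0.64 (edgeR adjusted p 3.5e-07) in MUT. NCBP2, a subunit of the cap-binding complex, had -0.57 (edgeR adjusted p 3.8e-06) in EV, -0.49 (edgeR adjusted p 2.2e-05) in WT and -0.77 (edgeR adjusted p 6.7e-08) in MUT. SRRT, its partner, had -0.56 (edgeR adjusted p 5.6e-07) in EV, -0.52 (edgeR adjusted p 1.2e-06) in WT and -0.42 (edgeR adjusted p 1.2e-05) in MUT. LSM11, a subunit of the U7 snRNP that cuts histone pre-mRNA, rose in WT, with 0.35 (edgeR adjusted p 0.0142), and was not called in EV or MUT. CDK2 rose in all 3 lines, with 0.22 (edgeR adjusted p 0.0048) in EV, 0.31 (edgeR adjusted p 2.3e-04) in WT and 0.38 (edgeR adjusted p 2.1e-05) in MUT. CCNE2, a cyclin E, rose by 1.09 (edgeR adjusted p 2.5e-06) in WT and 1.05 (edgeR adjusted p 2.6e-06) in MUT.

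Chaperones and deposition factors were read in the same way. Of 32 tested, EV had 1 higher and 19 lower, WT 2 and 17, and MUT 3 and 20, with medians of -0.23, -0.27 and -0.29, where 22.9%, 22.7% and 25.9% of all tested genes were lower. Between untreated WT and EV, 1 was higher and 2 were lower, near the 11.7% of all tested genes called. IPO4, an importin that carries histones H3 and H4, fell, with log2 values of -1.29 (edgeR adjusted p 2.2e-09) in EV, -1.20 (edgeR adjusted p 4.5e-09) in WT and -1.44 (edgeR adjusted p 3.1e-10) in MUT. SSRP1, a subunit of the FACT complex, had -0.75 (edgeR adjusted p 1.1e-07) in EV, -0.71 (edgeR adjusted p 2.3e-07) in WT and -0.81 (edgeR adjusted p 2.9e-08) in MUT. HIRA, which deposits H3.3, fell in the same order of lines, with -0.68 (edgeR adjusted p 4.9e-08), -0.57 (edgeR adjusted p 3.7e-07) and -0.65 (edgeR adjusted p 5.5e-08). DAXX, the other H3.3 chaperone, had -0.21 (edgeR adjusted p 0.00873), -0.20 (edgeR adjusted p 0.00858) and -0.30 (edgeR adjusted p 3.8e-04), and its partner ATRX had -0.11 (edgeR adjusted p 0.284), -0.08 (edgeR adjusted p 0.457) and 0.10 (edgeR adjusted p 0.317), not called. ASF1B, which hands H3 and H4 to the depositing complexes, rose by 0.27 (edgeR adjusted p 0.00275), 0.47 (edgeR adjusted p 1.2e-05) and 0.46 (edgeR adjusted p 1.0e-05) in the same lines. CHAF1B, a subunit of the CAF-1 complex that loads histones at forks, rose in WT by 0.49 (edgeR adjusted p 1.5e-05) and in MUT by 0.43 (edgeR adjusted p 3.3e-05). The larger CAF-1 subunit, CHAF1A, had -0.21 (edgeR adjusted p 0.0245) in EV, -0.18 (edgeR adjusted p 0.0471) in WT and -0.18 (edgeR adjusted p 0.041) in MUT. UBN2, a partner of HIRA, rose in MUT, with 0.54 (edgeR adjusted p 7.9e-04). CENPA, the H3 variant of centromeres, fell in WT and MUT, with -0.36 (edgeR adjusted p 0.00409) and -0.43 (edgeR adjusted p 8.1e-04).

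S-phase genes were set beside the clustered genes, since those are transcribed in S phase. Of 26 tested, EV had 2 higher and 12 lower with cytarabine, WT 6 and 7, and MUT 7 and 10, with medians of -0.19, 0.00 and -0.11. Over both directions, the 14 and 13 of 26 called in EV and WT were near the 49.1% and 49.0% of all tested genes called there. In MUT 56.3% of all tested genes were called. By direction, 26.1% of all tested genes were higher and 22.9% lower in EV, 26.3% and 22.7% in WT, and 30.4% and 25.9% in MUT. In EV, 12 of the 14 called S-phase genes were lower. Between untreated WT and EV, 1 was higher and 2 were lower, near the 11.7% of all tested genes called, with a median of -0.03, in the comparison where 11 of 18 clustered genes were higher. Between treated WT and EV, 13 were higher and none lower, and between treated MUT and EV 15 were higher and none lower, where 7.41% and 6.85% of all tested genes were higher. MCM5, a helicase subunit, fell, with log2 values of -1.09 (edgeR adjusted p 4.3e-11) in EV, -0.66 (edgeR adjusted p 1.1e-08) in WT and -0.94 (edgeR adjusted p 1.1e-10) in MUT. UNG, a uracil-DNA glycosylase, had -1.25 (edgeR adjusted p 3.7e-10) in EV, -0.84 (edgeR adjusted p 2.5e-08) in WT and -0.95 (edgeR adjusted p 3.4e-09) in MUT. MCM7 had -0.84 (edgeR adjusted p 4.6e-10) in EV, -0.72 (edgeR adjusted p 2.0e-09) in WT and -0.87 (edgeR adjusted p 1.5e-10) in MUT. RRM1, a subunit of ribonucleotide reductase, rose by 0.23 (edgeR adjusted p 0.00588) in EV, 0.46 (edgeR adjusted p 1.0e-05) in WT and 0.24 (edgeR adjusted p 0.00358) in MUT. The licensing factor CDT1 rose in MUT, with 0.28 (edgeR adjusted p 0.0203), and was not called in EV or WT. The share of cells in S phase was not measured, and its part in the histone results was not tested.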

How the data were processed

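RNA of 18 libraries was sequenced by the authors, whose deposited table gives each gene's estimated count. CASAVA, STAR 2.6.1d and hg38 are named in the submitters' processing notes, without a role. The counting tool and its handling of strand and of reads with several matches are not given in the sources used here. A second deposited table holds a normalized signal, which equalled 1 plus a library factor times the count (largest relative deviation 7.33e-06). It was used only for those factors. Of the deposited counts, 70.4% were whole, and all were rounded.

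Counts were analysed with edgeR 4.0.16 in R 4.3.3, using filterByExpr (18226 genes kept), TMM scaling and 1 quasi-likelihood fit of all 18 libraries with a coefficient for each of 6 groups. P-values were adjusted by Benjamini and Hochberg over all tested genes, with a threshold of 0.05. The SE was taken from the F statistic of each log2 fold change, and intervals are normal approximations at 95%. EdgeR's common biological variation was 0.104. The script was tested on simulated counts. Values were tested across all genes, and lists are described by counts and medians only. Members and lists were chosen with earlier results of these data known. Values in every library are given for all tested variants and for clustered genes ranked by level within their class or by change past the threshold. Of the related lists, the 2 genes with the largest rise and fall past the threshold in each line are named, with SLBP, NPAT, CASP8AP2, CENPA, ASF1B, CHAF1A, HIRA, DAXX and ATRX. An item that this rule names is not reported here. Between replicate pairs the chi-square per degree of freedom over genes ran from 2.45 to 46.8, so no libraries were merged. All 52 members were matched to RefSeq and to GENCODE release 44, whose canonical transcripts gave the lengths. DESeq2 1.42.0 was an alternative test. Alternatives also covered scaling, low-count filters, the samples in the fit, a minimum change and leaving out libraries.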

Additional observations from a re-analysis of the deposited data

Results flagged for a closer look

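HIST1H2BK fell more with cytarabine in MUT than in EV. The difference between the effects was -1.22 (SE 0.244, 95% interval -1.70 to -0.74, edgeR adjusted p 0.0399), with all 3 treated libraries below all 3 untreated ones in each line. Leaving out 1 library kept the call in 5 of 12 fits. The adjusted p was 0.0365 in edgeR with DESeq2's size factors, 0.0439 with the authors' factors and 2.3e-04 in DESeq2, and 0.134 in edgeR when only the 4 groups compared were fitted.

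HIST1H2AG rose in WT and not in MUT. Its difference between the effects was -1.08 (SE 0.162, 95% interval -1.40 to -0.77, edgeR adjusted p 0.00307), with 3 of 3 treated WT libraries above all untreated WT libraries. The call held in 12 of 12 fits without 1 library.

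H1F0 fell more in WT than in EV. The effects differed by -0.67 (SE 0.125, 95% interval -0.91 to -0.42, edgeR adjusted p 0.0303), with treated below untreated libraries in both lines. The call held in 2 of 12 fits without 1 library.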

How the results depend on the processing

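No called difference of a histone gene changed direction under any alternative run. Some values that were not called did, such as HIST2H2BE with cytarabine in MUT, at a log2 value of 0.04 and of -0.05 with the authors' factors, HIST1H2BJ in EV (-0.10, and -0.41 to 0.11 without 1 library), H3F3C in EV (0.43, and -1.37 to 0.88) and H3F3A in MUT (-0.44, and -0.74 to 0.02). Asking also for an absolute log2 fold change of at least 1, chosen after seeing the data, left 5, 8 and 10 histone genes called for cytarabine in EV, WT and MUT, with 5 clustered genes lower in EV and 0, 0 and 1 variants lower in EV, WT and MUT. It left 1 called between untreated MUT and EV, 9 between untreated MUT and WT, 3 between treated MUT and EV, 9 between treated WT and EV, and 0 for the difference of effects between WT and EV. That difference, with 1 gene called, gave 4 with DESeq2, 2 with a mean of at least 50 counts, 5 with only the groups compared and 2 without untreated MUT replicate 3 and treated EV replicate 1. The difference between MUT and EV, also with 1, gave 3 with DESeq2's size factors, 4 with DESeq2, 3 with a mean of at least 50 counts and 0 with only the groups compared. The difference between MUT and WT, with 1, gave 3 with DESeq2. Fitting only the groups compared left 4 called between untreated MUT and EV and 10 between untreated MUT and WT. A mean of at least 50 counts left 5 clustered genes lower with cytarabine in EV and 9 lower in treated MUT than in treated WT. The causes were not tested.

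Leaving out 1 library at a time gave 13 to 16, 18 to 20 and 17 to 19 genes called for cytarabine in EV, WT and MUT. It gave 0 to 4 for the difference between MUT and EV, 1 to 2 for MUT and WT, and 0 to 2 for WT and EV. Between untreated lines it gave 6 to 12 for MUT and EV, 11 to 12 for WT and EV and 15 to 19 for MUT and WT. Between treated lines it gave 6 to 9, 13 to 15 and 17 to 18. Clustered genes lower with cytarabine numbered 7 to 10, 9 to 11 and 8 to 11, and variants lower 5 to 6, 6 and 7 to 8. Clustered genes higher in WT than EV numbered 9 to 10 untreated and 10 to 12 treated, and those lower in MUT than WT 10 to 13 and 13 to 14. Of the calls on named genes, 1 was lost and 140 kept with DESeq2, and 2 were lost and 139 kept with its size factors. With the authors' factors 3 were lost and 138 kept, and with no filter 5 and 136. With only the groups compared, 20 were lost and 119 kept. Over the fits without 1 library, 113 were lost and 751 kept, counting each call once per fit.

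The replicate numbers were not used as pairs in the main fit. The correlation of deviations between libraries of the same number ran from -0.036 to 0.326, and 2 of 9 exceeded 0.1. Libraries of different numbers were not compared in this way, so these values cannot show whether same-numbered cultures were paired. With the replicate number as a block, 0 histone genes were called for the difference between MUT and EV, where HIST1H2BK had an edgeR adjusted p of 0.0599, and the other counts stayed within 1.5 times.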
